A study of Mus musculus with 55 samples.

Results

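Myelin is a membrane wrapped around axons by oligodendrocytes, and its lipids are rich in galactosylceramide and sulfatide, which carry very long and often 2-hydroxylated acyl chains. The 8 genes described here, Aspa, Elovl7, Elovl1, Fa2h, Cers2, Ugt8a, Gal3st1 and Gamt, encode enzymes of this supply line or of oligodendrocytes' metabolism. They were taken by gene symbol from the gene counts of mouse dorsal hippocampus, across 10 groups defined by genotype and by estrous stage or male sex. All 8 were found, with 1 entry each, among 55487 Ensembl genes, and all 8 were among the 16168 genes that passed the filter on low counts.

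The enzymes act in a known order. Aspartoacylase (Aspa) splits N-acetylaspartate from neurons and yields acetate for lipid synthesis, ELOVL7 and ELOVL1 lengthen fatty acyl-CoA chains, FA2H places a hydroxyl group on the acyl chain, and ceramide synthase CERS2 joins very long acyl chains to the sphingoid base. UGT8A adds galactose to ceramide to form galactosylceramide, and GAL3ST1 adds sulfate to that lipid to form sulfatide. GAMT is no lipid enzyme: it methylates guanidinoacetate to creatine, a step for which oligodendrocytes are a main site in brain.

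The samples were 55 adult mice on a C57/BL6j background, with 1 library per mouse. Metestrus was represented by 4 WT and 5 KO mice, diestrus by 6 and 6, proestrus by 5 and 4, estrus by 7 and 6, and males by 5 and 7. KO mice were homozygous for a Cnih3 allele that lacks 1 exon, and WT mice came both from B6 pairs and from pairs carrying the Cnih3 allele. Stage was read from vaginal cytology, no agent was given, and ages ran from 10.86 to 23.71 weeks. The libraries hold polyadenylated RNA from the supernatant of a detergent lysate of bulk tissue.

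Ages were not spread evenly over the groups. Of 17 mice under 14 weeks, 7 were in diestrus, 3 of the 6 WT and 4 of the 6 KO diestrus mice, and the other 10 were spread over 43 mice of the remaining groups. Library totals ranged from 25881295 to 63547098 counts. Counts of Cnih3, which include the exons left in the KO allele and so do not check the deletion itself, were lower in KO mice by a log2 fold change of -0.34 ± 0.08 (SE, adjusted p = 0.00692 by limma). Markers of CA1 pyramidal cells (4 of 4), dentate granule cells (4 of 4) and neurons (5 of 5) were detected in every library. The 15 markers of mature oligodendrocytes, the cells in which these enzymes are best known, were also above 0 in every library.

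Per kb of exon, the scale on which levels of different genes can be set side by side, Gamt and Cers2 were the highest of the members. Their levels over the 55 libraries were 14.3 ± 3.65 and 12.5 ± 2.8 CPM per kb (mean ± SD), where CPM is the read count scaled to the size of its library. Ugt8a followed at 6.94 ± 2.24, Fa2h at 6.57 ± 1.85, Elovl1 at 5.31 ± 1.39 and Aspa at 4.96 ± 1.06 CPM per kb. Gal3st1 at 2.99 ± 0.891 and Elovl7 at 2.8 ± 0.967 CPM per kb were the lowest. Every member was well covered: the lowest raw count in any library was 130, for Gal3st1, and the highest 3432, for Cers2.

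Promoter sequences are shown for Ugt8a and Gal3st1, which make the 2 glycolipids most typical of myelin, and for Gamt, whose levels moved least with the others. They are RefSeq sequences on GRCm38.p6, cut so that no annotated exon is included, and capitals mark letters of a searched motif.
Gal3st1 (chr11:3983386-3983635, plus strand): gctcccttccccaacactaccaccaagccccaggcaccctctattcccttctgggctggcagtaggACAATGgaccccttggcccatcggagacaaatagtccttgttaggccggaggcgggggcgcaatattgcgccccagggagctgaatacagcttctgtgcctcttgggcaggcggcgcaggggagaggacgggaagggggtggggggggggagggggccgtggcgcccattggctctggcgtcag
Ugt8a (chr3:125938683-125938902, minus strand): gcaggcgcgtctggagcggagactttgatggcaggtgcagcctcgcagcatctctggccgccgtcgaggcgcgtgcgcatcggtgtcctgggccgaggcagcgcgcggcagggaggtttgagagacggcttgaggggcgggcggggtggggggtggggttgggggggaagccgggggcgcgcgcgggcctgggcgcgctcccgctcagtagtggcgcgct
Gamt (chr10:80261026-80261262, minus strand): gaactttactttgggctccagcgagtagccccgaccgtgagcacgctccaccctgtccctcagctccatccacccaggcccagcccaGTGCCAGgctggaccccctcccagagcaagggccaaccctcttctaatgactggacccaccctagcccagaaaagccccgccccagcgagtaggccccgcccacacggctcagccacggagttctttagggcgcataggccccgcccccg
The Gal3st1 stretch ends just before its start site at position 3983636 and holds ACAATG, letters bound by SOX factors, 184 bases before the start. The Gamt stretch holds GTGCCAG, the reverse of CTGGCAC, a motif of the myelin regulator MYRF, beginning 163 bases before the start site. The Ugt8a stretch holds none of the motifs searched.

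5 motifs were searched on both strands, from 250 bases before each start site to just after it, in 11 promoters of 7 members. AGGTCA, the nuclear receptor half-site, was found in 1 promoter each of Cers2 and Elovl1, ACAATG in 2 overlapping promoters of Gal3st1 and CTGGCAC in that of Gamt. ACAAAG (SOX) and CTGGTAC (MYRF) were found in none of them. Among 32851 mouse promoters of the same length, AGGTCA was held by 16.3%, ACAAAG by 18.7%, ACAATG by 12.6%, CTGGCAC by 5.01% and CTGGTAC by 2.24%. Any of them was held by 44% of all promoters and by 5 of the 11 member promoters, close to the same share.

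The first question was how the enzymes differ between proestrus and diestrus, the stages between which ovarian estrogen rises. In WT mice 7 of the 8 members were higher in proestrus at an adjusted p below 0.05 (limma with voom quality weights, Benjamini-Hochberg over all genes, called FDR from here on), with the exception of Aspa. In KO mice 7 of the 8 were also higher, with the exception of Gamt. The median log2 fold change of the members was 1.08 in WT and 0.96 in KO mice, against 0.026 and 0.034 over all genes tested. Of all genes, 7% were called higher in WT proestrus and 19.4% in KO proestrus. In bulk tissue, fewer cells of a type and less RNA per cell cannot be told apart.

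**Figure D1:**
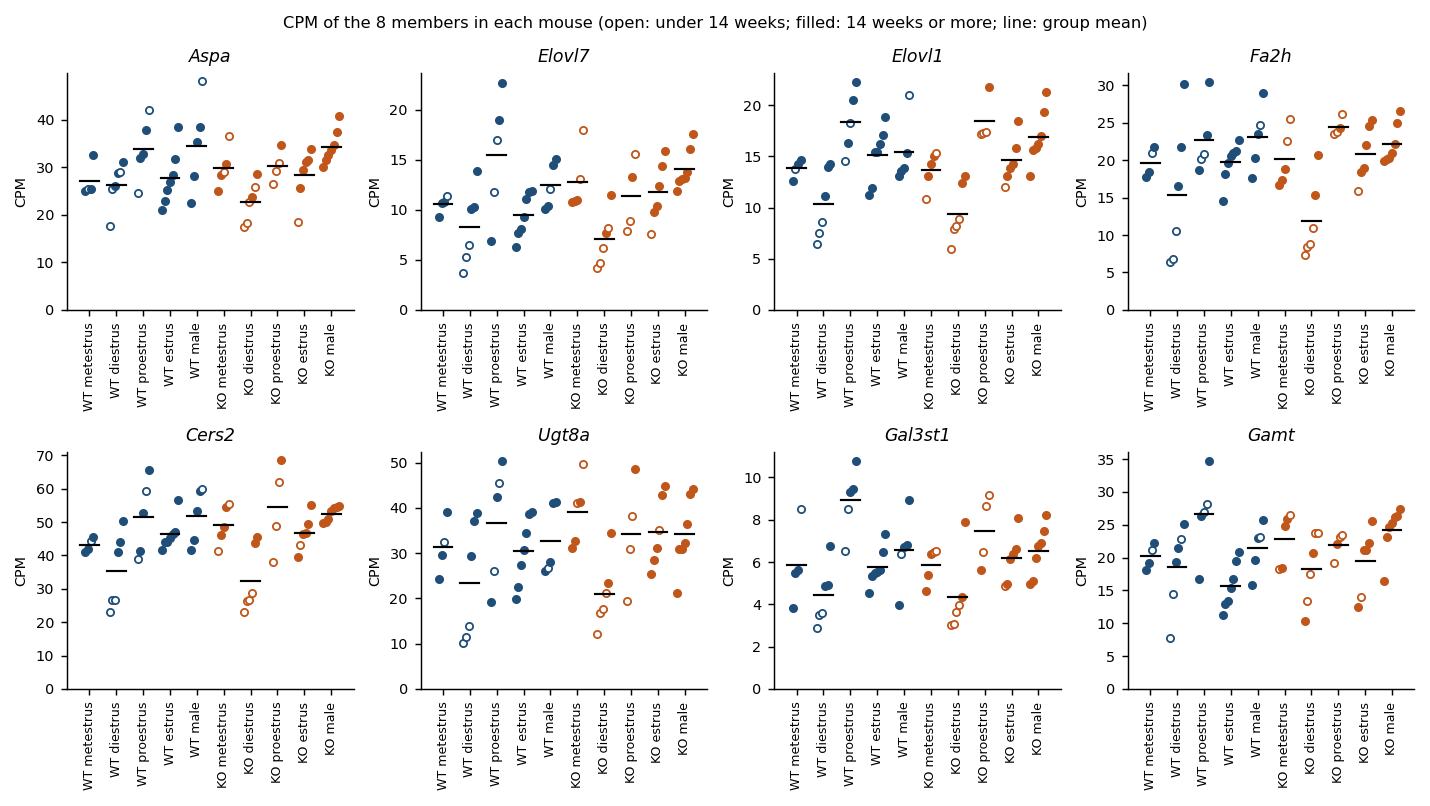
CPM (library-scaled read count, linear axis from 0) of each member in each of the 55 mice, by group, with WT in blue and KO in orange. Open points are mice under 14 weeks, filled points mice of 14 weeks or more, and lines are group means. For Elovl1, Fa2h and Cers2 the open diestrus points, 7 in number, are the lowest of all mice.

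Aspa, the acetate-releasing enzyme, lies on chromosome 11 (GRCm38 73304992-73329596, minus strand). Its level in WT diestrus mice ranged from 17.7 to 31.1 CPM with a median of 27.6. The WT proestrus mice had 24.6, 32, 32.9, 37.9 and 42.1 CPM, so the groups overlapped. The difference was 0.36 ± 0.16 on the log2 scale (SE, FDR 0.124). In KO mice, diestrus levels were 17.4 to 28.6 CPM (median 23.3) and proestrus levels 26.5, 29.3, 30.9 and 34.7 CPM. There the log2 fold change was 0.47 ± 0.15 (FDR 0.0104), with an overlap between the highest diestrus mouse and the lowest proestrus mouse.

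Elovl7, an elongase of long acyl chains on chromosome 13 (108214404-108285683, plus strand), had the widest spread of all members. Its highest library was 6.19-fold above its lowest. The WT proestrus mice had 6.87, 11.8, 17, 19 and 22.7 CPM against 3.65 to 13.9 CPM (median 8.3) in WT diestrus. The proestrus mice at 6.87 and 11.8 CPM lay within the diestrus range and the other 3 above it. The log2 fold change was 1.38 ± 0.24 (FDR 0.000671), while the plain means of log2 CPM, 3.84 and 2.92, lie closer together. The fit gives a lower weight to a library whose genes lie further from the means of its group, so the weight is no measure of RNA quality. The proestrus mouse at 6.87 CPM had the lowest weight of its group, 0.194. In KO mice the log2 fold change was 0.92 ± 0.22 (FDR 0.00106).

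Elovl1, the elongase that makes the very long chains used by CERS2, lies on chromosome 4 (118428093-118432953, plus strand). Its levels in WT diestrus were 6.47 to 14.3 CPM (median 9.84), and in WT proestrus 14.5, 16.3, 18.3, 20.5 and 22.3 CPM. These groups did not overlap, which was so for 0.433% of all genes in this comparison and for no other member. The log2 fold change was 1.07 ± 0.17 (FDR 0.000401, the smallest of the members in WT mice). In KO mice diestrus levels of 5.93 to 13.1 CPM lay wholly below proestrus levels of 17.2, 17.3, 17.4 and 21.8 CPM. That log2 fold change was 1.14 ± 0.15 (FDR 7.26e-07). Groups without overlap were more common in the KO comparison, at 6.88% of all genes.

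Fa2h, the fatty acid 2-hydroxylase, lies on chromosome 8 (111345135-111393824, minus strand) and gave the largest fold change of the members in KO mice. KO diestrus mice had 7.3 to 20.7 CPM (median 9.87), and KO proestrus mice 23.5, 23.7, 24.3 and 26.2 CPM, without overlap. The log2 fold change was 1.36 ± 0.18 (FDR 8.3e-07). In WT mice it was 1.1 ± 0.21 (FDR 0.00129), although the WT diestrus mice reached from 6.41 to 30.1 CPM and so spanned nearly the whole proestrus range of 18.7 to 30.4 CPM.

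Cers2, on chromosome 3 (95314791-95323599, plus strand), had levels of 39, 41.3, 52.7, 59.2 and 65.5 CPM in WT proestrus and of 23 to 50.3 CPM (median 33.9) in WT diestrus. Its log2 fold change was 0.8 ± 0.15 (FDR 0.00142) in WT and 0.97 ± 0.14 (FDR 1.24e-06) in KO mice. The KO proestrus mice had 38.1, 48.9, 61.9 and 68.7 CPM, against 23.1 to 45.5 CPM (median 27.7) in KO diestrus. Exons of Cers2 share 75 bases with Setdb1 and 144 with the antisense gene 6330562C20Rik, and exons of Elovl1 share 53 with Cdc20, all on the other strand. The library kit is not stated to keep strand.

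Ugt8a, the galactosyltransferase that forms galactosylceramide (chromosome 3, 125865271-125938619, minus strand), had 19.3, 26.1, 42.4, 45.5 and 50.3 CPM in WT proestrus. The WT diestrus mice fell into 2 separate sets, 3 at 10.2 to 13.8 CPM and 3 at 29.3 to 38.8 CPM. The log2 fold change was 1.19 ± 0.26 (FDR 0.00558). In KO mice levels of 19.5, 30.9, 38.1 and 48.6 CPM in proestrus stood against 12.1 to 34.4 CPM (median 19.4) in diestrus, and the log2 fold change was 0.95 ± 0.23 (FDR 0.00123).

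Gal3st1, the sulfotransferase of the next step (chromosome 11, 3983636-3999326, plus strand), was the member with the lowest CPM. WT proestrus mice had 6.52, 8.5, 9.33, 9.45 and 10.8 CPM against 2.87 to 6.78 CPM (median 4.24) in WT diestrus, with 1 mouse of each group in the overlap. The log2 fold change was 1.23 ± 0.21 (FDR 0.000452). KO proestrus mice had 5.6, 6.46, 8.65 and 9.15 CPM and KO diestrus mice 3.01 to 7.89 CPM (median 3.8). There the log2 fold change was 1 ± 0.18 (FDR 4.42e-05).

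Gamt, the creatine enzyme (chromosome 10, 80258151-80261012, minus strand), differed from the other members. In WT mice its proestrus levels were 16.7, 26.4, 27, 28.2 and 34.7 CPM and its diestrus levels 7.72 to 25.1 CPM (median 20.4), with a log2 fold change of 0.87 ± 0.2 (FDR 0.00711). In KO mice the levels were 19.2, 22, 23.1 and 23.4 CPM in proestrus and 10.4 to 23.7 CPM (median 19.1) in diestrus, wholly overlapping, and the log2 fold change of 0.3 ± 0.18 did not pass (FDR 0.19). The difference between these fold changes, KO minus WT, was -0.57 (95% interval -1.11 to -0.03), and with an FDR of 0.374 in limma it was not called.

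**Figure D2:**
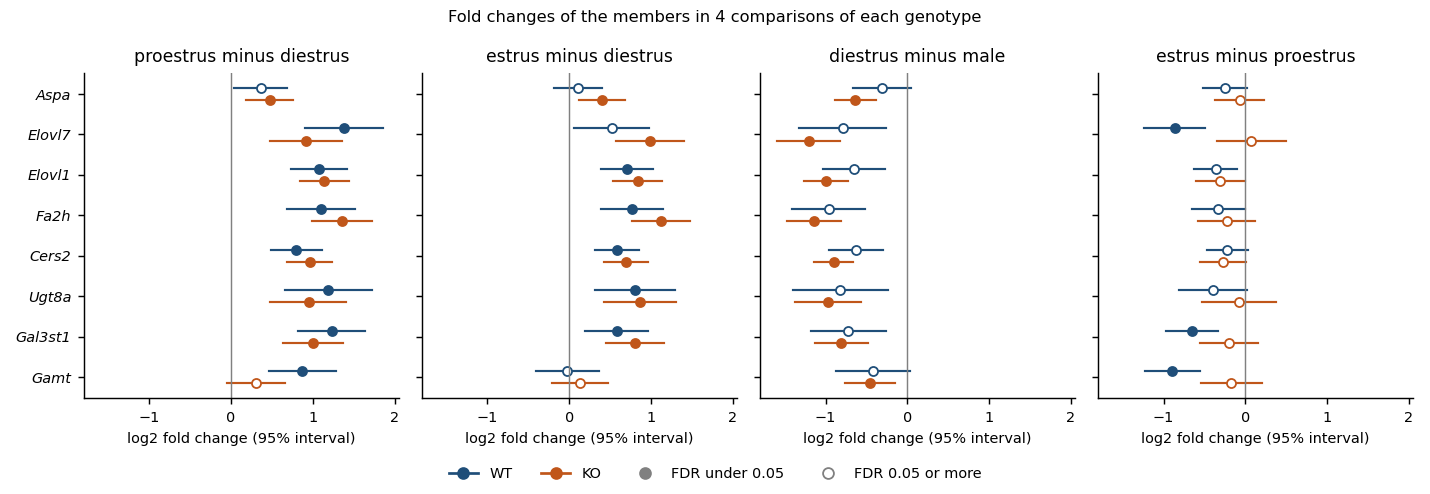
Log2 fold changes of the members with 95% intervals in 4 comparisons, WT in blue and KO in orange, filled where the FDR is below 0.05. In proestrus minus diestrus 7 members are filled in each genotype, and in diestrus minus male all 8 are filled in KO and none in WT.

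The lowest diestrus levels of most members were those of the younger mice. The 7 diestrus mice under 14 weeks also carry 3-digit mouse numbers, which no other mouse does. The labels do not say whether such numbers mark a separate cohort or batch, so age within diestrus and such a cohort cannot be told apart. For Elovl7, Elovl1, Fa2h, Cers2, Ugt8a and Gal3st1 the 3 WT diestrus mice under 14 weeks lay below the 3 older ones without overlap. Their mean log2 CPM was lower by between 0.72 (Gal3st1) and 1.57 (Ugt8a). Fa2h was at 6.41 to 10.6 CPM in the 3 younger WT mice and at 16.5 to 30.1 CPM in the 3 older ones, and Cers2 at 23 to 26.7 and 41.1 to 50.3 CPM. In KO diestrus, the 4 younger mice lay below the 2 older ones without overlap for Elovl1, Fa2h, Cers2, Ugt8a and Gal3st1. Gamt and Aspa overlapped between the ages in both genotypes. Within the KO diestrus mice the older ones had the lower mean of Gamt, by 0.38 on the log2 scale.

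Young mice of the other groups had higher levels of Elovl1, Fa2h, Cers2 and Gal3st1. The 10 mice under 14 weeks outside diestrus had 10.8 to 21 CPM of Elovl1 (median 16.2), as against 5.93 to 8.89 CPM (median 7.86) in the 7 young diestrus mice and 11.2 to 22.3 CPM (median 15.4) in the 33 older mice outside diestrus. For Fa2h these ranges were 15.9 to 26.2, 6.41 to 11 and 14.5 to 30.4 CPM. For Cers2 they were 38.1 to 61.9, 23 to 28.7 and 39.5 to 68.7 CPM. For Gal3st1 they were 4.88 to 9.15, 2.87 to 3.96 and 3.83 to 10.8 CPM. For Elovl1, Fa2h and Cers2 the 7 young diestrus mice were the 7 lowest of 55, as they were for 1.42% of all genes tested. Of the 15 mature oligodendrocyte markers, 5 had the same order, Mag, Mog, Cldn11 and Gjb1 among them, and the rest did not. For Gal3st1 and Ugt8a the young diestrus mice filled 6 of the 7 lowest places, for Elovl7 also 6, for Aspa 4 and for Gamt 2. A KO estrus mouse of 13 weeks had 18.5 CPM of Aspa, below the 21 to 40.9 CPM of the 33 older mice outside diestrus.

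**Figure D3:**
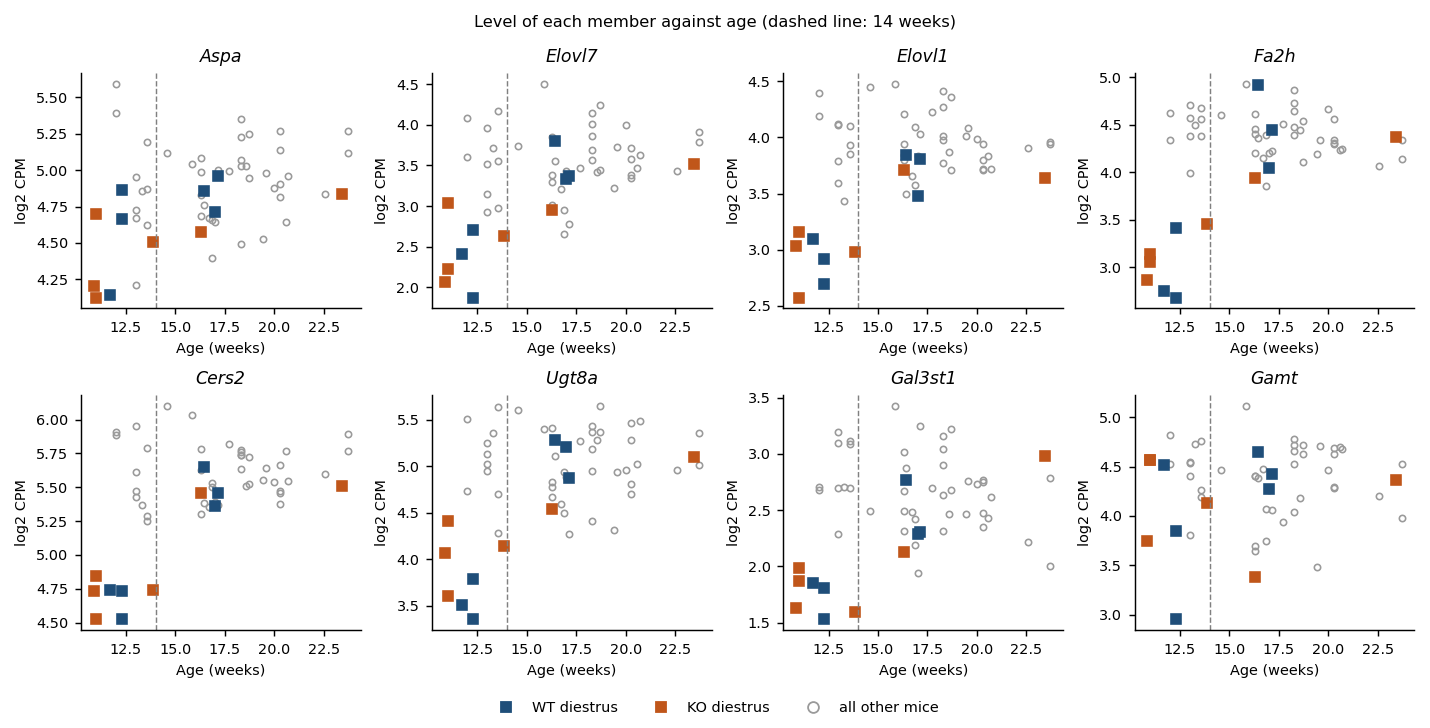
Log2 CPM of each member against age in weeks for 55 mice. Squares are diestrus mice (WT blue, KO orange), grey circles all other mice, and the dashed line marks 14 weeks. The 7 squares left of the line lie apart from the 10 circles left of it for Elovl1, Fa2h, Cers2 and Gal3st1. For Gamt they lie among them.

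The calls followed these mice. They were already seen to hold the lowest levels of most members, and the age limit was set with the data known. Fits with or without them are therefore descriptions, and no cause was tested. Library weights were estimated anew in each fit. With only the younger diestrus mice kept, all 8 members were higher in WT proestrus (20.8% of all genes were), with a median log2 fold change of 1.41. With only the 3 older WT diestrus mice none was called (0% of all genes), at log2 fold changes of 0.21 to 0.81 and FDR of 0.524 or more. In KO mice the count with only the 2 older diestrus mice was also 0 (0% of all genes), at 0.21 to 0.65. Leaving out any single one of the 3 young WT diestrus mice took the WT count from 7 to 0, and the share of all genes called higher from 7% to 0% in each case. Without any one of the 3 older WT diestrus mice that share was 16% to 19.8%. Leaving out any one of the 6 KO diestrus mice left the KO count at 7, with 14.8% to 21% of all genes called higher. The young mice also weighed more in the fit: the library weights were 0.763 to 1.14 for the younger and 0.327, 0.494 and 0.935 for the older WT diestrus mice, and 1.61 to 1.74 against 0.433 and 0.509 in KO diestrus.

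**Figure D4:**
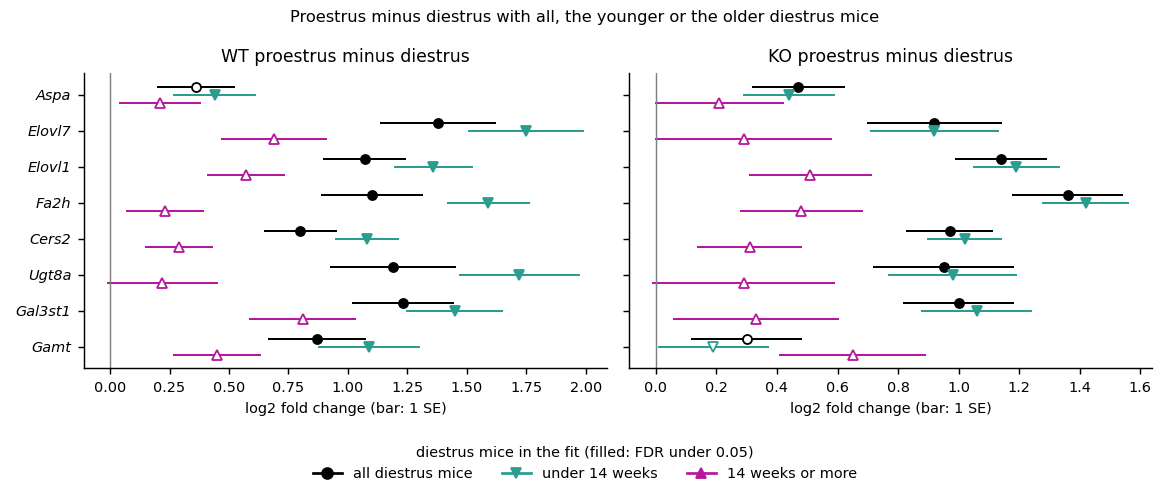
Log2 fold change of each member between proestrus and diestrus (bar: 1 SE) with all diestrus mice, only those under 14 weeks or only those of 14 weeks or more, WT left and KO right, filled where the FDR is below 0.05. With the older mice all points stay above 0 and none is filled.

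A fitted slope on age, in a model with the 10 groups, was called for no member. The slopes lay between 0.002 (Gamt) and 0.044 (Ugt8a) log2 units per week, and the smallest FDR was 0.358, for Cers2, where 0.0804% of all genes had a called slope. The unadjusted limma p was 0.00608 for Cers2, 0.00986 for Elovl1, 0.041 for Ugt8a and 0.048 for Elovl7, and above 0.05 for the rest. A slope common to all groups does not describe an age difference found within diestrus alone. With age in that model 7 members were called in each genotype for proestrus against diestrus, where 3.51% of all genes were higher in WT and 16.5% in KO mice. The test itself also mattered. By edgeR's quasi-likelihood test no member was called in WT mice (0% of all genes higher), at log2 fold changes of 0.36 to 1.01 and a smallest FDR of 0.0611. In KO mice edgeR called 4 (3.97% of all genes higher).

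Diestrus was next compared with males and with metestrus. These comparisons, and those above, share the same diestrus mice and so are not independent of each other. In KO mice all 8 members were lower in diestrus than in males, with a median log2 fold change of -0.94, where 18% of all genes were called lower. Cers2 gave the smallest FDR, 1.9e-07, at -0.9 ± 0.12. Its levels of 23.1 to 45.5 CPM in KO diestrus lay wholly below 49.8 to 54.8 CPM (median 53.3) in the 7 KO males. Aspa fell by 0.64 ± 0.13 (FDR 0.000154), from 30 to 40.9 CPM (median 33.6) in males to 17.4 to 28.6 CPM. Elovl7 fell by 1.2 ± 0.19 (FDR 5.42e-06), from 11.9 to 17.6 CPM (median 13.2) in males to 4.18 to 11.5 CPM (median 6.95). Elovl1 fell by 0.99 ± 0.13 (FDR 3.65e-07), from 13.1 to 21.3 CPM (median 16.2) in males to 5.93 to 13.1 CPM (median 8.52). These 4 genes did not overlap between the groups, which was so for 1.61% of all genes.

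Among the other members, Ugt8a, at 21.2 to 44.1 CPM (median 32.3) in KO males, was lower in KO diestrus by a log2 fold change of -0.97 ± 0.2 (FDR 0.000309), its smallest FDR in any comparison. Fa2h fell by 1.14 ± 0.16 (FDR 1.1e-06), Gal3st1 by 0.81 ± 0.16 (FDR 0.000229) and Gamt by 0.45 ± 0.15 (FDR 0.0206). With edgeR 5 of the 8 were called (3.39% of all genes lower), and with only the 2 older KO diestrus mice none (0.0371%). With those 2 mice the log2 fold change of Gamt was -0.8 ± 0.23 (FDR 0.194), larger than with all mice, and those of the other 7 were -0.58 to -0.14. With age as a covariate 6 members were called (5.16% of all genes lower; median -0.69), with FDR of 0.0829 for Ugt8a and 0.117 for Gamt, and unweighted voom also called 6 (4.6%). No KO male was under 14 weeks, against 4 of the 6 KO diestrus mice. In WT mice no member was called between diestrus and males (0.068% of all genes), although all 8 had lower means in diestrus and 6 had an unadjusted limma p below 0.05. Leaving out any 1 of the older WT diestrus mice, or any 1 of 3 of the WT males, raised this count from 0 to 6, and the share of all genes called lower to between 8.21% and 12.9%. With only the 3 younger WT diestrus mice 7 were called lower (13.9% of all genes). The difference between the genotypes in this contrast was called for none of the 8 members (0% of all genes), with KO minus WT values of -0.41 to -0.04.

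Against metestrus, WT diestrus mice were lower in Elovl1, Fa2h, Cers2 and Ugt8a, 4 of the 8 members (5.59% of all genes lower). The log2 fold changes were -0.59 ± 0.17, -0.79 ± 0.2, -0.47 ± 0.15 and -0.85 ± 0.26, at FDR of 0.0165 to 0.0428. KO diestrus mice were lower in 7, all but Gamt (8.2% of all genes lower), with Cers2 again leading at -0.79 ± 0.13 (FDR 0.000183). Leaving out any 1 of the 3 young WT diestrus mice took the WT count to 0 (0% of all genes lower), leaving out WT metestrus mouse 3_3 or 13_1 took it to 1 or 2 (6.35% and 3.55%), and edgeR called none in either genotype (0% of all genes lower in WT and 0% in KO mice).

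Estrus mice were again above diestrus mice. In WT estrus 5 members were higher, Elovl1, Fa2h, Cers2, Ugt8a and Gal3st1 (13.1% of all genes higher), at log2 fold changes of 0.58 to 0.8. In KO estrus 7 were higher, all but Gamt (19.3% of all genes higher), from 0.4 ± 0.14 for Aspa to 1.12 ± 0.18 for Fa2h. EdgeR called no member in either genotype (0% of all genes higher in WT and 0.0495% in KO). With only the older diestrus mice neither genotype had a called member (0% of all genes higher in both). Without any 1 of the 3 young WT diestrus mice the WT count was 0, with at most 0.00619% of all genes called higher.

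Estrus against proestrus does not involve diestrus mice. In WT mice Gamt, Elovl7 and Gal3st1 were lower in estrus (5.25% of all genes lower). Gamt gave the smallest FDR, 0.00124, at a log2 fold change of -0.9 ± 0.17. The 7 WT estrus mice had 11.2 to 20.9 CPM (median 15.3) and the 5 proestrus mice 16.7 to 34.7 CPM, where the proestrus mouse at 16.7 CPM, the one of lowest weight, lay within the estrus range. Elovl7 fell by 0.86 ± 0.19 (FDR 0.0036) to 6.3 to 11.9 CPM (median 9.29), and Gal3st1 by 0.65 ± 0.16 (FDR 0.00942) to 4.55 to 7.32 CPM (median 5.53). The other 5 members had negative fold changes too and were not called. EdgeR (0.0804% of all genes lower) and voom without quality weights (0%) called none of the 8, and the count was 2 without WT proestrus mouse 4_1 (2.88%) and 6 without WT proestrus mouse 5_4 (8.06%). In the same comparison 7 of 9 choroid plexus markers were lower (median log2 fold change -3.16), as were 3 of 15 mature oligodendrocyte markers. The summed choroid plexus level was 23.3 to 121 CPM in WT estrus and 52.6 to 1440 CPM in WT proestrus. Its part in the members' differences was not tested. In KO mice no member was called between these stages (0.507% of all genes), where Gamt differed by -0.17 ± 0.19.

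In WT proestrus against metestrus Gal3st1 alone was called, higher by 0.71 ± 0.18 (FDR 0.0346, 0.699% of all genes higher), from 3.83 to 8.51 CPM in the 4 metestrus mice. The count was 0 without the WT metestrus mouse of 17 or of 18.57 weeks or WT proestrus mouse 4_1 (0.0928%, 0.247% and 0% of all genes higher). It was 2 without WT metestrus mouse 5_1 or WT proestrus mouse 8_2 (2.55% and 0.779%), and 3 without WT proestrus mouse 5_4 (2%). In KO mice none was called (4.37% of all genes). Between estrus and metestrus limma called no member in WT (0% of all genes) or KO mice (0%). At an unadjusted limma p below 0.05 there was 1 member in WT and none in KO, and edgeR called none. Against males, no member was called in WT metestrus (0.0309% of all genes), WT proestrus (0.0309%), WT estrus (0.0495%), KO metestrus (0.359%), KO proestrus (0.315%) or KO estrus (7.66%). At an unadjusted limma p below 0.05 these held 0, 4, 1, 1, 0 and 0 members, and edgeR called none.

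No member was called between KO and WT mice, which does not show that none differed. The comparison averaged over all groups called none of the 8 and 3.4% of all genes, and its log2 fold changes ran from -0.06 (Aspa, 95% interval -0.19 to 0.07) to 0.13 (Gamt, -0.03 to 0.3). Within metestrus (0.0247% of all genes called), diestrus (0%), proestrus (0.315%), estrus (0.179%) and males (0.00619%) no member passed either. The unadjusted limma p was below 0.05 for 1 member in proestrus and 1 in estrus and for none in the other 4 genotype comparisons, and edgeR called none. The diestrus count rose from 0 to 4 without WT mouse 548 and to 3 without WT mouse 549 or 569, all under 14 weeks (6.74%, 5.76% and 4.74% of all genes called), and the proestrus count from 0 to 1 without WT mouse 5_4 (2.04%). The largest difference in proestrus was that of Elovl7, at -0.63 ± 0.21 (95% interval -1.05 to -0.2, FDR 0.177). Its levels there were 7.88, 8.85, 13.3 and 15.6 CPM in KO and 6.87 to 22.7 CPM in WT mice. Tests of whether a stage difference itself differed between the genotypes called no member for proestrus against diestrus (0% of all genes), estrus against diestrus (0%) or estrus against males (0%), by limma. In these tests 1 member (Gamt), 0 and 0 had an unadjusted p below 0.05, and edgeR called none. Without WT mouse 548 the first and second of these counts were 1 (2.63% and 0.111% of all genes called). Without WT mouse 569 the first was 1 (2.07%).

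Ordered by group mean, KO diestrus and WT diestrus were the lowest of the 10 groups for 7 members, and for Gamt WT estrus was lowest, followed by WT diestrus. The top place was held by WT proestrus for Elovl7, Gal3st1 and Gamt, by KO proestrus for Elovl1, Fa2h and Cers2, by KO metestrus for Ugt8a and by KO males for Aspa. Neighbours in this order were separated by more than the SD within groups only once each for Elovl1 and Cers2. For both genes this was the step down to the diestrus groups, 0.46 against an SD of 0.37 for Elovl1 and 0.36 against 0.33 for Cers2. For the other members no neighbours differed beyond their spread.

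The 15 markers of mature oligodendrocytes moved in the same comparisons. In WT proestrus against diestrus 12 of 15 were called higher and none lower (median log2 fold change 0.92), in KO 11 of 15 (0.87), and in KO diestrus against males 13 of 15 were lower (-0.92). Their summed level ranged from 3390 to 5940 CPM in WT diestrus, 4260 to 7500 in WT proestrus, 3290 to 5250 in KO diestrus, 4470 to 6900 in KO proestrus and 5030 to 6160 CPM in KO males. In WT proestrus against diestrus the log2 fold change was 0.25 ± 0.14 (FDR 0.222) for Mbp, 0.53 ± 0.14 (FDR 0.0131) for Cnp, 0.99 ± 0.16 (FDR 0.000452) for Cldn11 and 1.51 ± 0.23 (FDR 0.000167) for Mag. With the mean of the 15 markers as a covariate, no member was called in proestrus against diestrus in WT (0% of all genes higher) or KO mice (0%), or in diestrus against males in WT (0.0247% lower) or KO mice (0.408%). The median change of the members in this fit was 0.22 in WT and 0.13 in KO proestrus. The markers were called in the same comparisons and followed the members across libraries, with r up to 0.91 (Fa2h). A loss of calls is thus built into this fit, which cannot tell cell number from RNA per cell.

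Markers of other cell types were also called in these comparisons. Of all genes, 7% were called higher in WT proestrus, 19.4% higher in KO proestrus and 18% lower in KO diestrus against males. In lists this short a count of 1 is not read as a difference. The shares of all genes called lower in proestrus, or higher in KO diestrus than in males, are not given here. Counts in those directions are therefore not read as a difference either. Precursor markers were called higher in proestrus for 2 of 7 in WT and 5 of 7 in KO mice. Microglial markers were higher for 1 of 6 and 4 of 6, and blood markers for 1 of 5 and 4 of 5. In KO diestrus against males 6 of 6 microglial markers and 1 of 7 precursor markers were lower. Neuronal markers were lower for 2 of 5 and higher for none in WT proestrus, and higher for 2 and lower for 2 in KO proestrus. Astrocyte markers were lower for 1 of 5 in WT proestrus, higher for 1 and lower for 1 in KO proestrus, and higher for 2 of 5 in KO diestrus than in males. The summed microglial level was 126 to 161 CPM in KO diestrus and 155 to 207 CPM in KO males. Choroid plexus markers were called in none of these 3 comparisons, 0 of 9. Of 3 pituitary markers tested, 1 was higher in KO proestrus than in KO diestrus and 2 were higher in KO diestrus than in KO males, while Lhb, not among them, was at 0 in all 55 libraries. The part of these cell types in the members' differences was not tested.

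**Figure D5:**
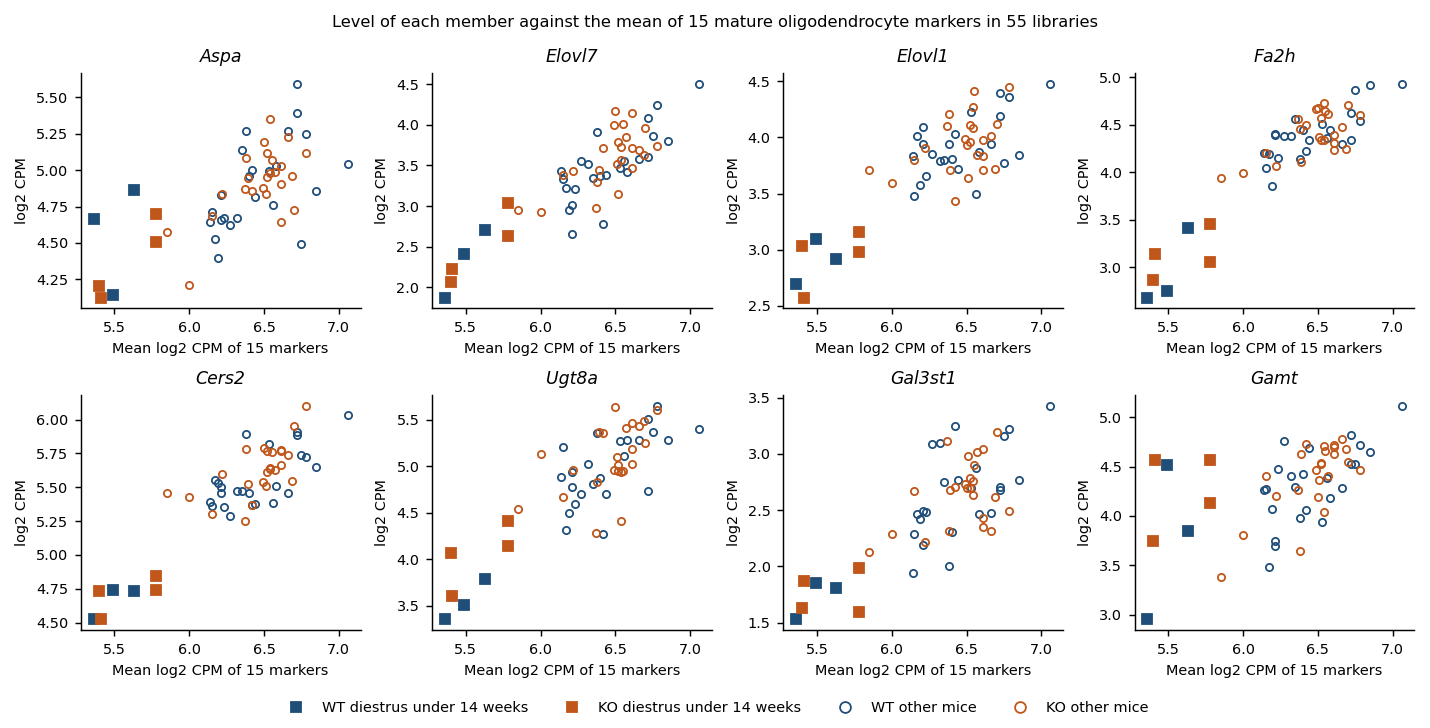
Log2 CPM of each member against the mean log2 CPM of 15 mature oligodendrocyte markers in 55 libraries, WT in blue and KO in orange. Filled squares are diestrus mice under 14 weeks, and open circles all other mice. For Elovl1, Fa2h and Cers2 the filled squares are the 7 lowest points, and for Aspa and Gamt they reach into the other mice.

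Other genes of the pathways were taken as 6 lists. Of 49 tested genes in these lists (sphingoid base and ceramide synthesis, the elongation cycle, other sphingolipid branches and turnover, donors of galactose and sulfate, N-acetylaspartate and acetate, and creatine), 7 were higher and 1 lower in WT proestrus than in diestrus, where 7% of all genes were higher. In KO mice 22 were higher and 5 lower (19.4% of all genes higher), and in KO diestrus against males 3 were higher and 26 lower (18% of all genes lower). The median log2 fold changes of the 49 were 0.21, 0.23 and -0.32.

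In WT proestrus against diestrus the leading pathway genes were Cers5, another ceramide synthase, at 0.66 ± 0.12 (FDR 0.00117), Gatm, which makes the substrate of GAMT, at 0.66 ± 0.16 (FDR 0.00749), and Cers1, the neuronal ceramide synthase, at 1.37 ± 0.36 (FDR 0.0129). In KO mice they were Arsa, which removes sulfate from sulfatide, at 0.74 ± 0.13 (FDR 2.06e-05), Cers4 at 0.7 ± 0.13 (FDR 8.57e-05) and the ceramide desaturase gene Degs1 at 0.54 ± 0.1 (FDR 9.37e-05). Of the 9 elongation cycle genes tested, 0 were called in WT and 5 were higher in KO proestrus, and 8 were lower in KO diestrus than in males. The donor list moved both ways. In KO diestrus against males Papss2, which makes the sulfate donor, was higher at 0.68 ± 0.11 (FDR 3.07e-06), while Slc35b2, which carries that donor into the Golgi, was lower at -0.47 ± 0.08 (FDR 3.38e-05). Degs1 was lower too, at -0.56 ± 0.09 (FDR 6.26e-06).

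Across the 55 libraries, which share stage, age and depth differences, the members rose and fell together to different degrees. Pearson's r of log2 CPM over the 28 pairs ran from 0.26 to 0.89 with a median of 0.64, highest for Elovl1 with Cers2. With group means removed the median was 0.47 and the range -0.01 to 0.82. Gamt was the least like the rest, with r between 0.26 (Aspa) and 0.62 (Elovl7). Against the marker mean, r was 0.91 for Fa2h, 0.89 for Cers2, 0.87 for Elovl7, 0.83 for Ugt8a, 0.82 for Elovl1, 0.77 for Gal3st1, 0.69 for Aspa and 0.56 for Gamt.

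The genes most like each member were taken by r over 55 libraries. For Cers2 they included Trf (0.931) and Cldn11 (0.928), for Ugt8a Tspan2 (0.935) and Ttyh2 (0.917), and for Fa2h Cldn11 (0.926), Unc5b (0.918) and Tmem88b (0.908). Elovl1 was most like Cd82 (0.892), Mog (0.887) and Cldn11 (0.882), Elovl7 was close to Prr5l (0.867) and Tmem63a (0.856), and Aspa was most like Septin4 (0.853), Car2 (0.829) and Opalin (0.829). For Gal3st1 they were Cpox (0.846), Cuedc1 (0.823) and Rnpepl1 (0.821), and for Gamt Meis3 (0.886), Mrps26 (0.861) and Slc25a39 (0.861). With group means removed all the genes named for Aspa, Fa2h, Cers2 and Ugt8a were again among the top 3, as were 2 for Elovl1 and 1 each for Elovl7, Gal3st1 and Gamt.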

How the data were processed

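RNA of the dorsal hippocampus of 55 mice was sequenced by the authors as paired reads from a polyadenylated cDNA library, aligned to GRCm38 with STAR 2.7.9a and counted per gene with featureCounts 2.0.3. The deposited gene counts, which are raw and whole, were used for every value. The log2 CPM table deposited by the authors served only to check the normalization, which matched within 5e-14. The CPM and transcript tables were not used here, and 1 count column that matches no mouse in the labels was left out.

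Of 55774 lines in the count table, 287 hold a gene a second time and were dropped. Work was done in R 4.3.3. The filter asked for more than 1 CPM in 10 or more libraries, and 5 ribosomal genes were removed as well. TMM factors came from edgeR 4.0.16, and the model was limma 3.58.1 with voomWithQualityWeights, with 1 mean for each of 10 groups taken from the labels, and 30 contrasts. The FDR followed Benjamini and Hochberg over 16168 genes in each contrast, with a threshold of 0.05. CPM in the text is TMM-scaled. Total counts of 25881295 to 63547098 set the counting precision. Within groups, libraries differed beyond sampling noise in all 129 pairs, so none was a copy. Exon lengths and positions came from GENCODE M21 on GRCm38, which is older than the release used for counting. The promoters came from RefSeq.

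The members and all gene lists were chosen with earlier results of these data known, as was the age limit of 14 weeks. Members are given in each comparison, with all mice where a member's FDR was smallest; of pathway genes the 3 with the smallest FDR were named, and of each member the 3 genes with the highest r. The values of 1 gene that these rules name are not reported here. Alternatives were the edgeR quasi-likelihood fit, the Wald test of DESeq2 1.42.0, unweighted voom, RLE size factors, no filter, age or the oligodendrocyte marker mean as a covariate, subsets by age or parents, and each mouse left out. Limma with and without quality weights, edgeR and DESeq2 were tested on simulated counts, for WT proestrus against diestrus only. The other steps were not tested in this way. Mice are separate animals, so spreads are between animals.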

Additional observations from a re-analysis of the deposited data

Results flagged for a closer look

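A mouse was called far from its group where the gap to its nearest neighbour took an unusually large share of the group's range (Dixon's ratio at 95%). Of 80 sets of 1 member in 1 group, 5 met this, and chance alone flags about 5% of such sets. WT metestrus mouse 3_3 had 32.6 CPM of Aspa, where the other 3 mice had 25 to 25.4 CPM (0.939 of the range). WT diestrus mouse 569, the youngest of its group, had 17.7 CPM of Aspa, and the next mouse 25.4 CPM (0.64 of the range). KO proestrus mouse 14_1 had 21.8 CPM of Elovl1 against 17.2 to 17.4 CPM in the other 3 (0.943). WT estrus mouse 1_1 had 56.6 CPM of Cers2, above 41.7 to 47 CPM in the other 6 (0.61). KO male 2590 had 16.4 CPM of Gamt, below 23.1 to 27.4 CPM in the other 6 (0.666). Leaving out mouse 14_1 left the KO count of members higher in proestrus than in diestrus at 7, and leaving out mouse 569 took the WT count from 7 to 0.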

How the results depend on the processing

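Counts are members called at an FDR below 0.05, and causes were not tested. Most counts stand here without the share of all genes called. A change in such a count is therefore not read as particular to the members. RLE size factors changed no count or direction. With edgeR the counts were 0 in WT diestrus against metestrus (4 in the report), WT proestrus against metestrus (1), WT proestrus against diestrus (7), WT estrus against diestrus (5), WT estrus against proestrus (3), KO diestrus against metestrus (7) and KO estrus against diestrus (7), 4 in KO proestrus against diestrus (7) and 5 in KO diestrus against males (8). In the same order of the first 8, DESeq2 gave 0, 0, 2, 0, 1, 0, 2 and 4, and voom without quality weights 0, 0, 2, 1, 0, 0, 3 and 4. Without a filter on low counts they were 0, 0, 3 and 0 in WT diestrus and WT proestrus against metestrus, WT estrus against diestrus and WT estrus against proestrus. With age as a covariate they were 0, 3 and 3 in the first 3 of these, 2 in KO diestrus and 1 in KO proestrus against metestrus.

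The counts in this paragraph also stand mostly without the share of all genes called, and changes in them are not read as particular to the members. With only mice of 14 weeks or more, WT proestrus against metestrus had 6, against diestrus 3 and against males 3. This subset drops 1 of 4 WT metestrus, 3 of 6 WT diestrus, 2 of 5 WT proestrus and 1 of 5 WT male mice. WT estrus against proestrus had 6 in that subset. WT and KO diestrus against metestrus, estrus against diestrus in both genotypes, and KO diestrus against males had 0. KO proestrus then held only 1 mouse, and its count against diestrus is left out. With only the older diestrus mice all diestrus counts, and that of WT proestrus against metestrus, were 0. With only the younger ones WT diestrus against metestrus and against males had 7 each (13.9% of all genes lower against males). WT proestrus against metestrus then had 2. With only mice of a Cnih3 by B6 parent pair, WT proestrus against metestrus had 0, against diestrus 3, WT estrus against diestrus 3, WT estrus against proestrus 0 and WT diestrus against males 7. With the oligodendrocyte marker mean as a covariate all diestrus counts and that of WT proestrus against metestrus were 0. In the subsets by age or parents a group with 1 mouse was assumed to vary like the others.

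With mice of 14 weeks or more, and with only the older diestrus mice, the log2 fold changes in WT diestrus against metestrus turned to 0.09 and 0.08 (Fa2h), 0.03 and 0.02 (Cers2) and 0.11 and 0.11 (Ugt8a), and in WT estrus against diestrus to -0.09 and -0.09 (Fa2h) and -0.16 and -0.16 (Ugt8a). With mice of 14 weeks or more Gal3st1 turned to 0.07 in KO diestrus against metestrus. In KO proestrus against diestrus Gal3st1 turned to -0.03, where KO proestrus held only mouse 14_1. That mouse had 5.6 CPM of Gal3st1, the lowest of its full group. With the marker mean, Fa2h turned to -0.13 in WT, and Elovl7 to -0.12, Ugt8a to -0.23 and Gamt to -0.2 in KO proestrus against diestrus, Gal3st1 to 0.01 in KO diestrus against metestrus, Ugt8a to -0.02 in KO estrus against diestrus, and Ugt8a to 0.16 and Gamt to 0.03 in KO diestrus against males. With 1 kind of parent pair, Elovl7 turned to 0.81 and Gamt to 0.24 in WT estrus against proestrus. The number of mice that this subset leaves in each group is not given here. These values are therefore not read as an effect of parentage.

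Leaving out 1 mouse at a time, the counts ranged from 0 to 6 in WT diestrus against metestrus, 0 to 3 in WT proestrus against metestrus, 0 to 8 in WT proestrus against diestrus, 0 to 6 in WT estrus against diestrus, 2 to 6 in WT estrus against proestrus, 0 to 6 in WT diestrus against males, 5 to 7 in KO diestrus against metestrus, 7 to 7 in KO proestrus against diestrus, 6 to 7 in KO estrus against diestrus, 7 to 8 in KO diestrus against males, 0 to 4 in KO against WT diestrus, 0 to 1 in KO against WT proestrus, and 0 to 1 in the genotype difference of proestrus, and of estrus, against diestrus. They were 0 to 0 in all other comparisons. No paired analysis was possible because each mouse number is held by 1 mouse only. Some numbers begin alike in several groups, and the labels do not say what that beginning marks, so it was not used as a block. Depth did not limit the members, whose lowest count was 130.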
